A study of Mus musculus with 36 samples.

Results

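The Hox genes are the homeobox transcription factors that lie in 4 clusters of the mouse genome. They were taken here as every protein-coding gene of the GENCODE M21 annotation whose symbol is Hox, a cluster letter and a number. That rule gives 39 genes. Of these, 38 were among the 38924 gene identifiers counted in each library, and Hoxd4 is not analysed here. The 38 comprise 11 genes of the Hoxa cluster on chromosome 6, 10 of the Hoxb cluster on chromosome 11, 9 of the Hoxc cluster on chromosome 15 and 8 of the Hoxd cluster on chromosome 2, all by GRCm38 coordinates.

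Hox genes of the same number in different clusters are paralogs, and the 13 paralog groups follow the same order in each cluster, from group 1 at the 3′ end to group 13 at the 5′ end. In the embryo the 3′ genes are switched on first and reach furthest forward, into the hindbrain, while the 5′ genes start later and further back, in the spinal cord and tail. The forebrain and midbrain form ahead of the Hox domain. The proteins bind DNA through the homeodomain, often with cofactors of the Pbx and Meis families, retinoic acid turns the 3′ genes on, and Polycomb proteins keep the genes silent ahead of their limits.

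The 36 RNA libraries came from C57BL/6 mice and cover brainstem, hypothalamus and cortex, with 4 genotypes and 3 libraries per genotype and tissue. They were made to ask what is lost in the brain without the peptide hypocretin (Hcrt, also called orexin) or without the neurons that make it. The Hcrt/Orexin-ataxin-3 transgenic mice express ataxin-3 in the hypocretin neurons, which die. The Hcrt/Orexin knockout mice lack the gene but not the cells. Each model had its own wild type, called here the ataxin-3 line wild type and the Hcrt line wild type. Age and sex were not given in the sources used here, and nothing in them says whether the 3 libraries of a group came from separate animals, so p-values measure the spread between these libraries, which may be in part technical.

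Each library held between 21915540 and 47057537 counts in genes. Lists of tissue markers followed the tissue labels: the 8 brainstem markers summed to 547.7 to 790.7 CPM (counts scaled to a common library size) in the brainstem libraries, 4.16 to 16.5 in hypothalamus and 1.77 to 3.15 in cortex. In hypothalamus, Hcrt stood at 51.4 to 196 CPM in the 6 wild-type libraries, 2.07 to 2.46 in the transgenic ones and 0.996 to 1.14 in the knockout ones. In brainstem Hcrt was higher in the knockout (27 to 42 counts, 0.885 to 1.29 CPM) than in its wild type (0 to 5 counts). In cortex replicate 2 of the Hcrt line wild type had 30 counts of Hcrt, where replicates 1 and 3 had 1 each. In 4 hypothalamus libraries transcripts of neighbouring tissue were abundant. Replicate 1 of the transgenic group held 667 CPM of Omp, the olfactory marker protein. Replicates 1 and 3 of the ataxin-3 line wild type and replicate 3 of the Hcrt line wild type held 12200 to 23500 CPM of Gh, the growth hormone gene of the pituitary.

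The homeobox, 180 bases long, is the part of the sequence that the Hox genes share, and it bears on whether reads can be given to 1 gene. It was found in all 38 genes in the GENCODE M21 transcripts. Among the 20 genes detected in brainstem, homeoboxes of the same paralog group were 74.4% to 93.9% identical in base sequence over 16 pairs, and those of other pairs in the same cluster 54.4% to 88.9% over 48 pairs. Over the whole transcripts, the longest exact run shared by any pair of the 20 genes was 52 bases, between Hoxa6 and Hoxb4, followed by 47 bases for Hoxa6 with Hoxa7, Hoxa7 with Hoxb4 and Hoxb3 with Hoxd3. The read length was not given in the sources used here.

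RefSeq promoter windows (GRCm38.p6, from 250 bases before to 50 after the start) were held for 21 of the 38 genes, in 23 windows. They are shown for a gene at the top of the brainstem order, Hoxa5 (chr6:52204538-52204837, minus strand), for Hoxa9 (chr6:52227321-52227620, minus strand), the next gene of that cluster beyond the last one detected, and for Hoxb8 (chr11:96281655-96281954, plus strand), the most 5′ gene detected in its cluster. Capitals mark every match, on either strand and with overlaps allowed, to the TATA box TATAAA, the CCAAT box CCAAT, the composite PBX-HOX site TGATNNAT or the retinoic acid receptor half-site AGGTCA.
Hoxa5: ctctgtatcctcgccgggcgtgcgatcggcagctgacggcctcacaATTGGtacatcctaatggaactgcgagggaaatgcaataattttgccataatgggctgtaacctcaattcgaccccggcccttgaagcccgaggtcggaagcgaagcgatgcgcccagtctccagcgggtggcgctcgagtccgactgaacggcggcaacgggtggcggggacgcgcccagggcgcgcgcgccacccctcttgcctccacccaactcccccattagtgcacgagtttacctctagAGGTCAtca
Hoxa9: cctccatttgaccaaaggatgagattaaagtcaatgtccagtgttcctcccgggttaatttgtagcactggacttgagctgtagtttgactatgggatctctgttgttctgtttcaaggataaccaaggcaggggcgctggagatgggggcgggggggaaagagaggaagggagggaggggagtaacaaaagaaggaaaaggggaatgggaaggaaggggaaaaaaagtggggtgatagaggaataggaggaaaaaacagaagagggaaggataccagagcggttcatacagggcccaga
Hoxb8: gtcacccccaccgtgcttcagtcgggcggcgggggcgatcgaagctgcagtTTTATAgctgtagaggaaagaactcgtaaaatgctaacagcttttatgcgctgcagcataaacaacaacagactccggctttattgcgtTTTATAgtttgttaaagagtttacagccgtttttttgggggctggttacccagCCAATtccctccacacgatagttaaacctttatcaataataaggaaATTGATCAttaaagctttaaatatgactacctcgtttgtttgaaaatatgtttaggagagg
The Hoxa5 window held 29 CpG dinucleotides, 1 CCAAT match and 1 AGGTCA match. The Hoxa9 window held 4 CpG and no match. The Hoxb8 window held 13 CpG, 2 TATAAA matches, 1 CCAAT match and 1 TGATNNAT match. CCAAT was found in 8 of 11 windows of genes detected in brainstem (72.7%), in 6 of 12 windows of genes not detected (50%) and in 37.4% of all 32851 RefSeq windows. AGGTCA was found in 5 of 11 windows of detected genes (45.5%), 1 of 12 of the others (8.33%) and 16.3% of all windows. TGATNNAT was in 2 windows of each set and in 8.85% of all windows, and TATAAA in 1 and 2 windows and 13.6% of all. The median ratio of observed to expected CpG was 0.657 in the windows of detected genes, 0.675 in those of the other Hox genes and 0.384 over all windows. These are letter matches in short windows and were not tested.

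Hox transcripts were found in brainstem and were almost absent from cortex. The 38 genes together drew 4341 to 9224 counts in a brainstem library (145.8 to 254.3 CPM, median 213), against 0.0796 to 0.260 CPM in the cortex libraries, where they drew 3 to 9 counts in all. A gene was called detected in a tissue if it had over 3 counts in each of the 12 libraries. By this rule 20 of 38 genes were detected in brainstem and none in cortex. In brainstem 12 genes had no count in any library, in hypothalamus 18 and in cortex 28.

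**Figure D1:**
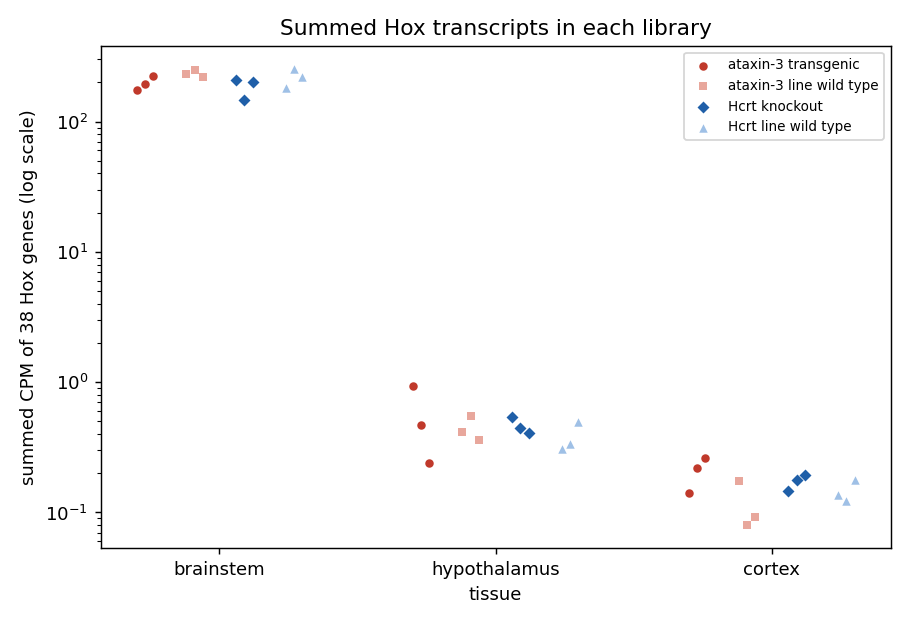
Summed CPM of the 38 Hox genes in each library (log axis), by tissue and genotype. Each point is 1 library. The brainstem libraries sit between 145.8 and 254.3 CPM, and every cortex library is at or below 0.260 CPM.

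The detected genes lay toward the 3′ ends of the clusters. In the Hoxa cluster 7 of 11 genes were detected, the last of them Hoxa7, and Hoxa9, Hoxa10 and Hoxa13 had no count while Hoxa11 had 1 count in all. In the Hoxb cluster Hoxb2 to Hoxb8 were detected (7 of 10). Hoxb1, which specifies facial motor neurons in the embryo, had 2 counts in all 12 libraries together, so the block began 1 gene in from the 3′ end. Hoxb9 had 6 counts, 5 of them in replicate 2 of the Hcrt line wild type, and Hoxb13 had none. In the Hoxc cluster, which has no genes of groups 1 to 3, Hoxc4, Hoxc5 and Hoxc6 were detected (3 of 9), Hoxc8 had 3 counts and Hoxc9 to Hoxc13 none. In the Hoxd cluster Hoxd1, Hoxd3 and Hoxd8 were detected (3 of 8), Hoxd9 had 2 counts and Hoxd10 to Hoxd12 none. With 0 counts over 12 brainstem libraries, levels of up to 0.00751 CPM (3 counts over the group) are still possible.

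Hoxd13, a gene of digit and genital development at the 5′ end of the Hoxd cluster, did not follow this order. It had 2 to 9 counts in every brainstem library, 71 in all, against 1 count over the hypothalamus libraries and 0 over the cortex libraries. Its level was 0.0751 ± 0.0309 RPKM (CPM per kilobase of exon, SD, n = 12), and it passed the looser rule of over 3 counts in at least 6 of 12 libraries, which gave 21 genes. The next gene, the homeobox gene Evx2, lies on the other strand (chr2:74652991-74659557) and had 72 to 153 counts in the same libraries, 6 counts over the hypothalamus libraries and 0 over the cortex libraries. The annotated exons of Hoxd13 overlap no other gene.

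Levels between genes are compared in RPKM. The 2 highest Hox genes in brainstem were of paralog group 5, in which Hoxa5 and Hoxc5 are needed for the phrenic motor neurons of breathing. Hoxa5 (ENSMUSG00000038253, chr6:52201754-52204587, minus strand) stood at 12.7, 15.2 and 16.6 RPKM in the transgenic libraries, 18.6, 18.9 and 18.5 in the ataxin-3 line wild type, 16.0, 9.34 and 15.0 in the knockout and 14.7, 20.1 and 15.5 in the Hcrt line wild type. Knockout replicate 2 was the lowest of the 12. The 3 transgenic libraries were below the 3 of their wild type (log2 difference -0.33 ± 0.20, edgeR adjusted p = 0.677), and the knockout overlapped its own. Hoxb5 (ENSMUSG00000038700, chr11:96303336-96306121, plus strand) stood at 11.7, 14.4 and 16.4 RPKM in the transgenic libraries, 16.8, 16.7 and 15.3 in the ataxin-3 line wild type, 14.6, 8.96 and 14.3 in the knockout and 12.7, 19.1 and 15.8 in the Hcrt line wild type. Its lowest and highest libraries were the same as those of Hoxa5. The means of Hoxa5 and Hoxb5, 15.9 ± 2.99 and 14.7 ± 2.66 RPKM (SD, n = 12), differed by less than either SD.

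Paralog group 4, which shapes the neck vertebrae, came next. Hoxa4 stood at 7.31, 6.81 and 8.79 RPKM in the transgenic libraries, 8.35, 9.67 and 8.16 in the ataxin-3 line wild type, 7.55, 5.75 and 8.20 in the knockout and 6.86, 7.84 and 7.999 in the Hcrt line wild type. Hoxc4, the most 3′ gene of its cluster, stood at 5.97, 6.37 and 7.29 RPKM in the transgenic libraries, 7.82, 7.12 and 7.10 in the ataxin-3 line wild type, 7.07, 5.11 and 6.84 in the knockout and 6.20, 7.33 and 7.56 in the Hcrt line wild type. For both genes knockout replicate 2 was again the lowest library. Hoxa4 was above Hoxc4 in 12 of 12 libraries, although the difference of their means, 0.96 RPKM, was within the SD of Hoxa4 (1.02). Hoxb4, of the same group, was lower at 3.75 ± 0.523 RPKM.

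Hoxd3, whose paralog group acts in the neck skeleton and the pharyngeal organs, was next and the steadiest Hox gene of all. It stood at 5.41, 5.22 and 6.22 RPKM in the transgenic libraries, 5.56, 6.16 and 4.98 in the ataxin-3 line wild type, 5.09, 4.88 and 5.37 in the knockout and 4.61, 5.52 and 5.77 in the Hcrt line wild type. The 12 libraries lay within 1.35 times of each other. Its paralogs Hoxb3 and Hoxa3 stood at 3.499 ± 0.330 and 1.51 ± 0.169 RPKM. Hoxb3 depends on the length used, because the antisense gene Hoxb3os covers 52.9% of its exons. With all its counts divided by the exon length that no other gene shares, it was at 7.43 RPKM, above Hoxc4 in the order. That value holds only if no read of the shared part was counted. How the counting treated strand was not given in the sources used here, so reads of such pairs cannot be told apart.

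**Figure D2:**
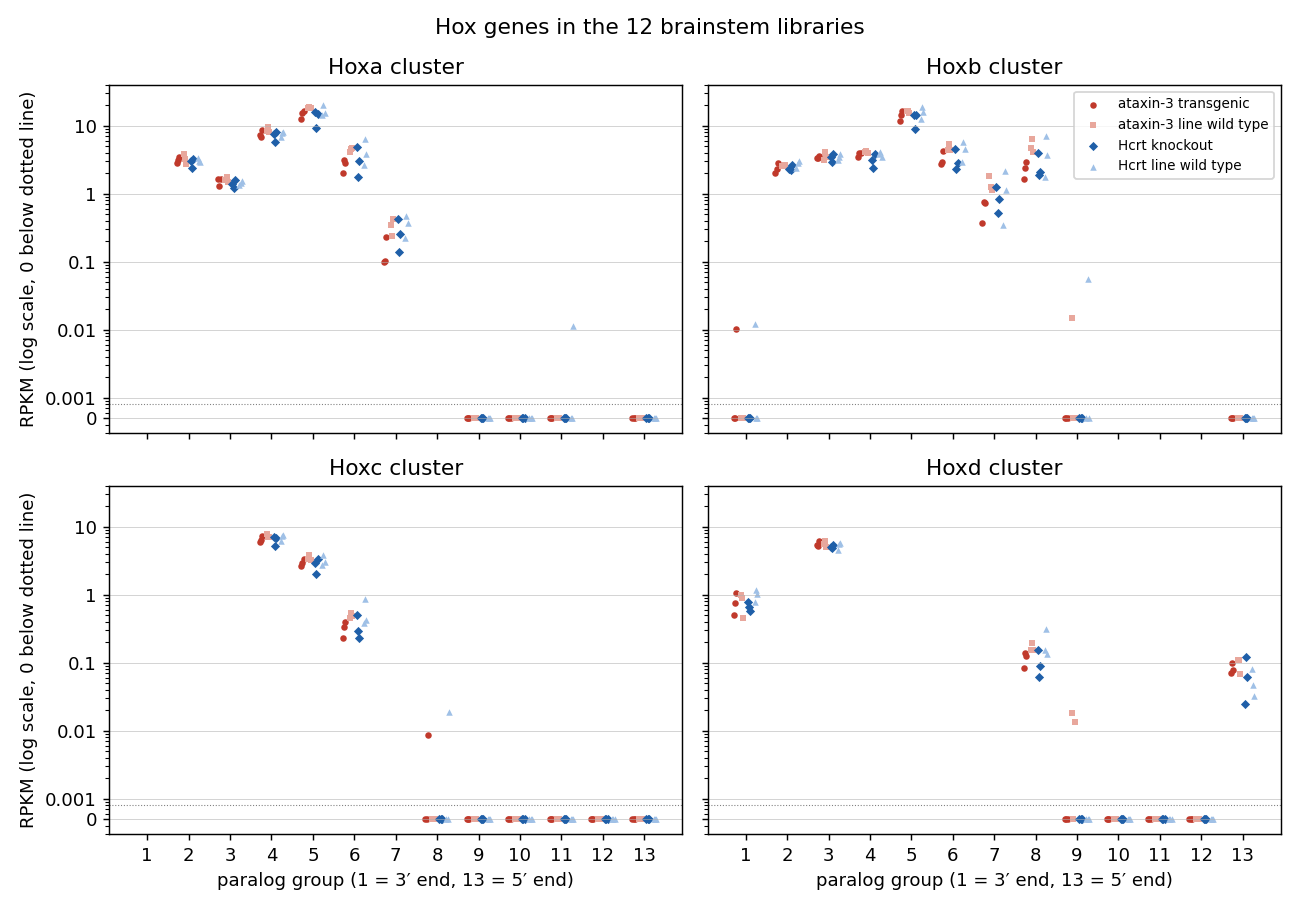
RPKM of Hox genes in the 12 brainstem libraries (log axis; a library at 0 is drawn below the dotted line), by cluster and paralog group; each point is 1 library, coloured by genotype. Levels peak at group 5 in the Hoxa and Hoxb clusters, and genes of groups 9 to 13 are at or near 0 apart from Hoxd13, at 0.0751 RPKM on average.

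Below these 5 came a run of genes whose means differed by less than their SD from one to the next: Hoxb6 (3.94 ± 1.15 RPKM), Hoxb4, Hoxa6 (3.66 ± 1.33), Hoxb8 (3.58 ± 1.82) and Hoxb3. Hoxa2 and Hoxb2, which pattern the hindbrain segments and the branchial arch crest, had 3.11 ± 0.385 and 2.55 ± 0.298 RPKM, and Hoxc5 had 3.11 ± 0.511. Hoxd1, of group 1, was low at 0.805 ± 0.233 RPKM. The remaining genes were Hoxb7 at 1.03 ± 0.562 RPKM and the last genes detected in the other 3 clusters, Hoxc6 at 0.426 ± 0.167, Hoxa7 at 0.281 ± 0.131 and Hoxd8 at 0.147 ± 0.0634 RPKM. In the Hoxb cluster the last gene detected, Hoxb8, was not the lowest, and its mean was above that of Hoxb7. Group 5 alone, with 3 genes, made up 40.7% of the summed Hox RPKM, groups 1 to 4 made up 43.4%, groups 6 to 8 15.8% and groups 9 to 13 0.102%. By cluster, Hoxa held 39.8% and Hoxb 39.9%, against 12.5% for Hoxc and 7.76% for Hoxd. Hoxd4, which is not analysed here, is left out of all these shares.

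Toward the 3′ ends, Hoxb2 stood at 2.05, 2.29 and 2.89 RPKM in the transgenic brainstem libraries, 2.61, 2.61 and 2.67 in the ataxin-3 line wild type, 2.32, 2.21 and 2.65 in the knockout and 2.44, 2.88 and 3.03 in the Hcrt line wild type. Hoxd1 stood at 0.4995, 0.750 and 1.07, at 0.997, 0.898 and 0.458, at 0.771, 0.649 and 0.578 and at 0.787, 1.18 and 1.03 RPKM in the same groups. For Hoxb2 each model overlapped its wild type. For Hoxd1 the transgenic libraries overlapped theirs, and the 3 knockout libraries were below the 3 of their wild type (log2 difference -0.58 ± 0.29, edgeR adjusted p = 0.9999). Hoxd1 varied most of the genes of groups 1 to 4, by 2.58 times between its lowest and highest library.

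Brainstem was compared with the other tissues in 1 fit over the 36 libraries, with edgeR's quasi-likelihood test. All 20 tested Hox genes were higher in brainstem than in hypothalamus, where 36% of all 17744 tested genes were higher, and all 20 were higher in brainstem than in cortex, where 43.1% of genes were higher. Nearly all of the 20 passed the filter on low counts through brainstem alone. These counts therefore follow largely from the filter and are no result about the members. The sizes are given instead. In bulk tissue fewer cells of a type and less RNA per cell cannot be told apart.

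Pooled over the 12 libraries of each tissue, Hoxa5 had 11707 counts in brainstem and 7 in hypothalamus, a ratio of scaled counts of 1867 (95% exact counting interval 905.7 to 4644), and none in cortex, which makes it at least 3987-fold higher in brainstem. Hoxb5 had 16147 counts against 13, a ratio of 1386 (810.5 to 2604), and was at least 5499-fold above cortex. Hoxa4 was 1083 times its hypothalamus level (463.7 to 3337), Hoxc4 1099 times (533.2 to 2735) and Hoxd3 2483 times (969.3 to 9114). The intervals cover counting error only. The ratios were far smaller at some ends of the blocks. Hoxd1 was 30.0 times its hypothalamus level (19.6 to 48.2) and 46.5 times its cortex level (26.95 to 87.8), Hoxd8 35.1 times (14.7 to 109) and 32.1 times (13.5 to 100.2), and Hoxa7 59.3 times (26.97 to 163) and 18.1 times (11.3 to 31.0).

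In hypothalamus 19 Hox genes had traces, at least 1 count but not over 3 in every library. The 2 libraries with the most of these counts were among the 4 with abundant Omp or Gh. Replicate 1 of the transgenic group, the one with Omp, had 36 such counts over 15 genes, 10 of them of Hoxb5. Replicate 3 of the Hcrt line wild type had 15 counts over 9 genes. The next counts are over a slightly different set, 19 of the genes detected in brainstem. The other 10 hypothalamus libraries had 3 to 7 counts each, and the cortex libraries 2 to 7. Among those 10, replicates 1 and 3 of the ataxin-3 line wild type, which also had abundant Gh, had 4 each. Hoxa5 was called higher in hypothalamus than in cortex, as were 42.7% of all genes, on 7 counts against 0. The call was not made without the 4 libraries with abundant Omp or Gh (edgeR adjusted p = 1) or without any 1 of 9 single libraries, 4 of hypothalamus (edgeR adjusted p = 0.9999 without replicate 1 of the transgenic group, and 1 without replicate 1 of the knockout, replicate 2 of the ataxin-3 line wild type or replicate 3 of the Hcrt line wild type) and 5 of cortex (0.0507 to 0.0543). DESeq2 did not call it either (adjusted p = 0.0910), nor did edgeR in wild-type libraries alone (0.0903) or with no filter on low counts (0.0720). Hoxa7, called lower in hypothalamus than in cortex, as were 40.3% of all genes, on 6 counts against 18, was not called without replicate 3 of the Hcrt line wild type cortex (edgeR adjusted p = 1), without replicate 1 of the ataxin-3 line wild type cortex (0.0533), without the 4 hypothalamus libraries (0.161) or in wild-type libraries alone (0.528).

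The brainstem libraries differed most from each other in the genes of groups 6 to 8. The coefficient of variation over the 12 libraries had a median of 12.03% for the 10 detected genes of groups 1 to 4 (9.07% to 28.9%), 18.1% for the 3 genes of group 5 (16.5% to 18.8%) and 43.3% for the 7 genes of groups 6 to 8 (29.1% to 54.4%). The range of the last set lay above that of the first. Level does not order the genes in the same way. Hoxb8, at 3.58 RPKM with 148 to 639 counts per library, varied by 50.8%, where counting error alone gives 5.80%. Hoxb3, at nearly the same RPKM, varied by 9.45%. Hoxb6 (29.1%), Hoxa6 (36.2%) and Hoxb7 (54.4%) also exceeded their counting error, at 6.31%, 9.81% and 14%.

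The genes of groups 6 to 8 had their extremes in the same few libraries. Hoxb8 had 1.66, 2.41 and 2.91 RPKM in the transgenic libraries, 4.76, 6.45 and 4.12 in the ataxin-3 line wild type, 4.03, 1.89 and 2.07 in the knockout and 1.79, 7.10 and 3.77 in the Hcrt line wild type. Hoxa6 had 2.06, 3.10 and 2.86, 4.16, 4.63 and 4.71, 4.82, 1.77 and 3.03 and 2.64, 6.33 and 3.85 RPKM in the same groups. All 7 genes were highest in replicate 2 of the Hcrt line wild type, at 1.46 to 2.11 times their mean (median 1.98). They were lowest in replicate 1 of the transgenic group (3 genes), replicate 2 of the knockout (3 genes) or replicate 1 of the Hcrt line wild type (1 gene). In knockout replicate 2 the 7 genes stood at a median of 0.505 times their mean, those of group 5 at 0.608 and those of groups 1 to 4 at 0.812.

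**Figure D3:**
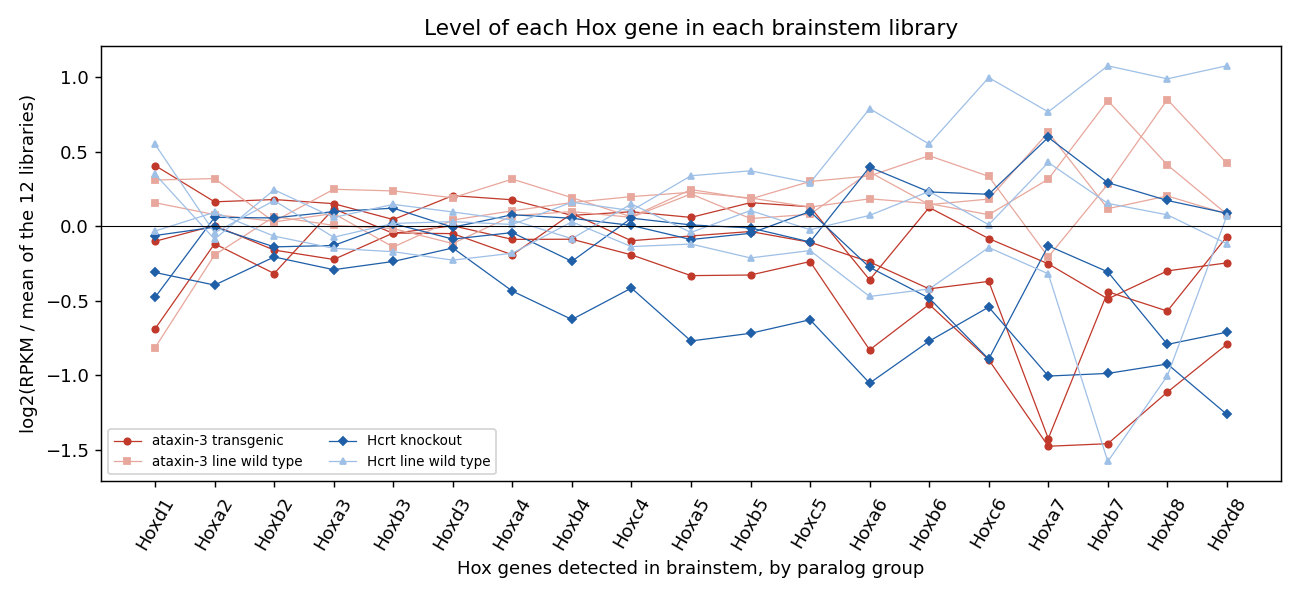
Each line is 1 brainstem library, coloured by genotype, and gives the log2 ratio of detected Hox genes to their mean over the 12 libraries, with genes ordered by paralog group. Lines lie close together from group 2 to group 4 and spread out from group 6 on, where replicate 2 of the Hcrt line wild type is the highest for all 7 genes.

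Other regional markers were set beside this spread. The 10 markers of cerebellum, the region that lies over the brainstem, summed to between 352.9 and 1356 CPM over the brainstem libraries, and the 4 spinal cord and caudal markers other than Hox genes to between 19.7 and 26.6, with 1 of the 4 at 0 in all 12 libraries. The 9 midbrain and isthmus markers summed to 16.4 to 48.3 CPM. In replicate 2 of the Hcrt line wild type, where groups 6 to 8 were highest, the sums were 1023 CPM for cerebellum, 20.0 for caudal markers and 30.8 for midbrain. In replicate 2 of the knockout they were 1083, 21.3 and 48.3 CPM. The cerebellar and caudal sums were close in this pair of libraries, and the midbrain sum was the highest of the 12 in that knockout library. The 8 brainstem markers summed to 547.7 and 592.7 CPM in the pair, the lowest 2 of the 12. Replicate 1 of the transgenic group was also lowest for 3 of the 7 genes of groups 6 to 8. Its sums were 391.1 CPM for cerebellum, 24.4 for caudal markers and 26.5 for midbrain. Its brainstem markers summed to 790.7 CPM, the highest of the 12. The midbrain markers were also taken as a median ratio to their mean over the 12 libraries. That ratio was 2.00 in transgenic replicate 1, 1.51 in knockout replicate 2 and 2.55 in knockout replicate 3. It was 0.460 to 0.978 in the rest, with 0.671 in replicate 1 of the Hcrt line wild type, lowest for 1 of the 7 genes. The part of tissue sampling in the Hox spread was not tested.

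The transgenic and knockout brainstems were each compared with their own wild type in a fit over the 12 brainstem libraries. No Hox gene passed in either comparison by edgeR's quasi-likelihood test or by DESeq2. Over all 16493 genes tested, 0.00606% were called in the transgenic comparison and 0.0728% in the knockout comparison. At an unadjusted p under 0.05 edgeR found 1 of 20 Hox genes in the transgenic comparison, where it found 8.35% of all genes, and 2 of 20 in the knockout comparison, where it found 3.24%.

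In the transgenic comparison the smallest p was that of Hoxa7. It stood at 0.101, 0.105 and 0.236 RPKM in the transgenic libraries and 0.350, 0.244 and 0.435 in their wild type, on 10 to 44 counts per library. The log2 difference was -1.23 ± 0.43 (SE; edgeR adjusted p = 0.543). All 3 transgenic libraries were below all 3 wild-type libraries, the nearest pair being 0.236 and 0.244 RPKM. Hoxb8 (log2 difference -1.11 ± 0.52, edgeR adjusted p = 0.613) and Hoxa6 (-0.74 ± 0.38, 0.625) followed, and in both the 3 transgenic values were below the 3 wild-type values. These genes were named for the smallest p in this comparison, a choice that favours such separation. The share of all genes separated in this way is not given, here or for Hoxa5 and Hoxd1.

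In the knockout comparison the smallest p was that of Hoxd8, at 0.156, 0.0612 and 0.0897 RPKM in the knockout and 0.154, 0.309 and 0.135 in its wild type, on 5 to 29 counts. The log2 difference was -0.93 ± 0.39 (edgeR adjusted p = 0.9999). The groups overlapped. Hoxb4 stood at 3.19, 2.43 and 3.90 RPKM against 3.83, 4.20 and 3.54, with a log2 difference of -0.28 ± 0.13, and Hoxc6 at 0.495, 0.293 and 0.230 against 0.386, 0.850 and 0.429, with -0.70 ± 0.33. Both had edgeR adjusted p = 0.9999, and in both the groups overlapped.

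The fitted differences of the 20 genes were mostly below 0. In the knockout 20 of 20 were negative, with a median log2 difference of -0.30 beside 0.00 over all genes, and in the transgenic mice 18 of 20, with a median of -0.19 beside 0.00. Since the genes move together between libraries, these are not 20 separate measurements. The transgenic median was -0.30, with 20 of 20 negative, without transgenic replicate 3, and -0.15, with 17 of 20, without transgenic replicate 1. The knockout median was -0.12, with 16 of 20 negative, without knockout replicate 2, and -0.12, with 19 of 20, without Hcrt line wild type replicate 2. By position the median log2 difference was -0.12, -0.32 and -0.47 in the knockout and -0.10, -0.23 and -0.74 in the transgenic mice for groups 1 to 4, group 5 and groups 6 to 8, the same sets whose spread between libraries grew. Beside the knockout comparison, 0 of 6 midbrain markers tested passed, with a median log2 difference of 0.63, 0 of 10 cerebellum markers with 0.31 and 0 of 7 blood markers with -0.99. Blood markers summed to 312.5 to 364.3 CPM in the knockout brainstems and 560.2 to 745.5 in their wild type. Their part in the Hox values was not tested.

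**Figure D4:**
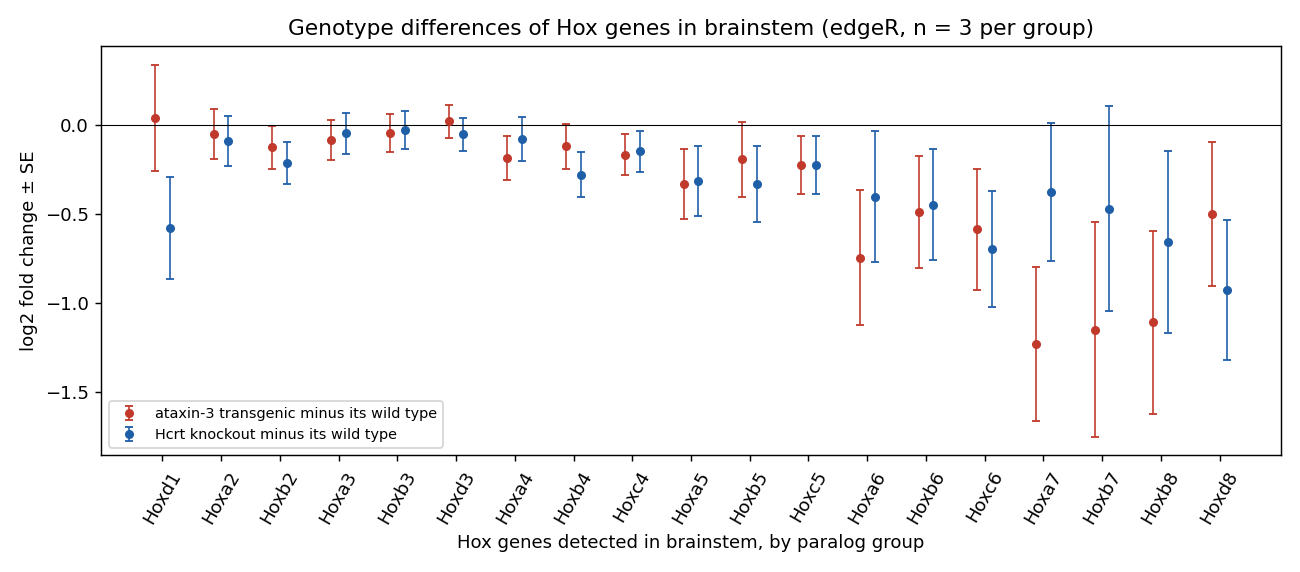
Log2 difference from the wild type of the same line (edgeR, error bars SE, n = 3 libraries per group) for Hox genes detected in brainstem, ordered by paralog group. Points lie at or below 0 for most genes and the error bars widen from group 6 on; no gene passed the adjusted threshold.

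The difference between the transgenic and knockout effects was called for no Hox gene in brainstem, as for 0% of all genes. Before adjustment edgeR gave a p under 0.05 for none of them and for 4.75% of all genes. The nearest were Hoxd1 (log2 difference of the effects 0.62 ± 0.42, edgeR adjusted p = 0.944), Hoxa7 (-0.85 ± 0.58, adjusted p = 0.944) and Hoxb4 (0.16 ± 0.18, adjusted p = 0.969). DESeq2 called none either. The 2 wild types also did not differ in any Hox gene by edgeR or DESeq2, and 0% of all genes were called. Before adjustment edgeR gave a p under 0.05 for none of them and for 14.9% of all genes. Hoxa4 (log2 difference of the ataxin-3 line from the Hcrt line 0.19 ± 0.12, edgeR adjusted p = 0.4995), Hoxd1 (-0.40 ± 0.29, adjusted p = 0.559) and Hoxa3 (0.15 ± 0.12, adjusted p = 0.586) came nearest. Hoxa3 had 1.64, 1.29 and 1.68 RPKM in the transgenic libraries, 1.602, 1.79 and 1.52 in the ataxin-3 line wild type, 1.38, 1.23 and 1.62 in the knockout and 1.36, 1.44 and 1.57 in the Hcrt line wild type.

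Of all genes tested, 36% were higher in brainstem than in hypothalamus and 40.8% lower, and the counts of the following lists stand beside these shares. Of the 9 TALE homeodomain cofactors, which work with the Hox proteins, 4 were higher in brainstem than in hypothalamus and 5 lower, with a median log2 difference of -0.12 beside -0.04 over all genes. Meis1 was at 31.5 ± 1.71 CPM in brainstem, 7.37 ± 2.91 in hypothalamus and 3.82 ± 1.16 in cortex (SD, n = 12 each), with a log2 difference of 2.12 from hypothalamus (edgeR adjusted p = 5.156e-14). Pbx4, at 3.92 ± 0.401, 7.56 ± 0.910 and 7.58 ± 0.407 CPM, and Pknox2, at 21.8 ± 1.495, 27.01 ± 1.99 and 78.4 ± 2.91 CPM, were lower in brainstem than in both other tissues.

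Of 15 tested genes of retinoic acid signalling, 4 were higher in brainstem than in hypothalamus, 6 were lower and 5 did not pass, beside 36% higher and 40.8% lower over all genes. Aldh1a1, an enzyme that makes retinoic acid, was at 330.0 ± 18.01 CPM in brainstem, 74.8 ± 18.04 in hypothalamus and 41.6 ± 2.63 in cortex. Cyp26b1, an enzyme that breaks it down, was at 36.7 ± 3.20, 4.89 ± 1.44 and 7.98 ± 1.36 CPM. The receptor Rxrg was lower in brainstem, at 3.11 ± 0.441 CPM, than in hypothalamus, at 25.1 ± 2.15. So was the binding protein Crabp1, at 2.63 ± 0.339 against 12.03 ± 3.22 CPM. Against cortex, Rxrg was lower in brainstem (log2 difference -1.255, edgeR adjusted p = 5.218e-13). Crabp1 was higher in brainstem than in cortex (2.894, edgeR adjusted p = 1.316e-16). Of the factors that act upstream of Hox genes in the embryo, 2 of 5 tested were higher in brainstem than in hypothalamus, among them Gbx2, 2 were lower (Egr2 and Vgll3) and 1 did not pass.

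Of 23 Polycomb genes 15 were lower in brainstem than in hypothalamus and 2 higher, with a median log2 difference of -0.22, and 18 were lower than in cortex and 1 higher. Pcgf2, a core member of the complex that places ubiquitin on histones, was at 10.3 ± 0.794 CPM in brainstem, 22.4 ± 2.23 in hypothalamus and 36.6 ± 2.17 in cortex. Its catalytic partner Rnf2 was at 21.04 ± 1.74, 36.1 ± 2.55 and 36.02 ± 1.71 CPM. Ring1 and Phf1 were lower in brainstem too. Over all genes 40.8% were lower in brainstem than in hypothalamus and 41.6% than in cortex. Of 12 trithorax and demethylase genes, whose products counter Polycomb, 6 were lower than in hypothalamus, 1 was higher and 5 did not pass. Ash2l, for example, was at 42.6 ± 0.986 CPM in brainstem, 56.7 ± 1.78 in hypothalamus and 39.4 ± 0.897 in cortex.

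Of the 19 listed non-coding and Evx genes inside the clusters, all 8 that passed the filter were higher in brainstem than in hypothalamus and cortex. They passed it through brainstem, as nearly all the Hox genes did. Hoxb3os was at 6.28 ± 0.688 CPM, Evx2 at 3.69 ± 0.507, Hoxaas2 at 2.90 ± 0.427 and Haglr at 1.55 ± 0.390 CPM in brainstem. In cortex the first 3 had no counts, and Haglr had 22 over the 12 libraries. Hotair and Hottip, RNAs of the 5′ parts of the Hoxc and Hoxa clusters, had no count in any library. Of 14 tested genes that flank the clusters, 7 were higher in brainstem than in hypothalamus, 6 were lower and 1 did not pass, beside 36% higher and 40.8% lower over all genes. Skap2, beside the Hoxa cluster, had the smallest p of these, at 22.7 ± 1.66 CPM in brainstem and 12.6 ± 1.03 in hypothalamus.

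Of 14 other homeobox genes of hindbrain neurons, 10 were higher in brainstem than in hypothalamus, 3 were lower and 1 did not pass, beside 36% higher and 40.8% lower over all genes. All 14 were higher than in cortex, beside 43.1% of all genes. The list was picked for hindbrain neurons, and some members, such as Lbx1, passed the filter on low counts through brainstem alone. These counts follow in part from that and are no result about the members. Lbx1, of dorsal interneurons, was at 13.4 ± 1.13 CPM in brainstem, with 5 counts over the hypothalamus and 12 over the cortex libraries. Pax2 was at 19.1 ± 1.94 CPM, Lhx4 at 5.89 ± 0.667 and Isl1, which hypothalamic neurons also use, at 2.80 ± 0.302 CPM in brainstem and 29.7 ± 3.14 in hypothalamus. None of these lists had a gene past the threshold in the brainstem genotype comparisons, by edgeR.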

How the data were processed

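RNA from 36 libraries was prepared with a stranded mRNA kit, per the labels' protocols. The authors deposited whole-number read counts per Ensembl gene, 1 table per library; the submitters' processing notes name cutadapt 1.2.1, TopHat2 2.0.9, HTSeq 0.5.4p3 and GRCm38. Strand setting, annotation release and read length were not given in the sources used here. Reads assigned to no gene (24.7% to 42% of a table) stayed out of library sizes. Libraries held 21915540 to 47057537 gene counts.

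Symbols came from GENCODE M21 (37607 of 38924 identifiers matched). Counts were tested with edgeR 4.0.16 in R 4.3.3 (TMM, filterByExpr, robust glmQLFit, glmQLFTest), with Benjamini-Hochberg adjustment over all genes tested and a threshold of 0.05. Tissues were compared in a fit of 12 groups, genotypes within each tissue. The script was tested on simulated data. SE is the log2 difference over the root of F. RPKM was computed as TMM-scaled CPM per kilobase of merged exons. Pooled ratios have 95% exact intervals, and bounds use 3 counts over the 12 libraries; both cover counting error only.

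Alternatives were DESeq2 1.42.0, RLE factors, other filters, a replicate block, only the groups compared, wild-type libraries only and leaving out each library; leaving out 4 hypothalamus libraries was chosen after seeing the data. Values per group were given for the 5 highest genes in brainstem, the outermost detected genes of each cluster, genes detected in the other tissues and the 3 smallest p per brainstem contrast; Hoxd13 was chosen after its values were seen, as were genes named to show the spread. Up to 4 genes of each other list were named by smallest p against hypothalamus; Gh, Hotair, Hottip and Omp were chosen after their values were seen. The members, lists and sets of paralog groups were chosen with earlier results of these data known. A few genes are not reported here.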

Additional observations from a re-analysis of the deposited data

How the results depend on the processing

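The counts of called Hox genes stayed within 1.5 times their value under each alternative run other than leaving out libraries: 20 in each brainstem tissue comparison (19 with a CPM filter, 21 with no filter) and 0 in each genotype comparison. Hypothalamus against cortex gave 3 calls, 2 or 3 under those alternatives, and not always of the same genes: with wild-type libraries only it gave 2, and neither Hoxa5 (edgeR adjusted p = 0.0903) nor Hoxa7 (0.528) was called. It gave 1 to 4 when a single library was left out; it gave 1 without replicate 3 of the Hcrt line wild type cortex. With over 10 counts required in each library, the number of genes detected in hypothalamus was 0 in place of 1. With the replicate block the counts were 20, 20 and 3 in the tissue comparisons and 0 in the genotype comparisons, so no count changed. The replicate numbers were not taken to pair the libraries: correlations of same-numbered libraries exceeded 0.1 in 0 of 12 pairs between any 2 tissues and, within a tissue, in 3 of 6 pairs in brainstem (-0.222 to 0.266), 2 of 6 in hypothalamus (up to 0.282) and 0 of 6 in cortex. Of values for single genes, 2103 kept their call or value, 17 lost a call, 4 moved and none reversed. Depth limits the genes under about 10 counts in some or all libraries, among them Hoxd8, Hoxd13 and all Hox genes outside brainstem. Hoxd8 had 5 to 29 counts per brainstem library, with a median of 14.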
